A study of Mus musculus with 3 samples.

Results

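The Clcn5 intron cluster is a group of microRNAs that are cut from introns of Clcn5, the gene of a chloride and proton exchanger of endosomes. Its 9 listed members were mmu-miR-501-3p, mmu-miR-501-5p, mmu-miR-500-3p, mmu-miR-362-5p, mmu-miR-362-3p, mmu-miR-532-5p, mmu-miR-532-3p, mmu-miR-188-5p and mmu-miR-660-5p. They were chosen by name. Of these, 8 were found among the 1908 mature microRNAs of the count tables, and mmu-miR-660-5p was not analysed here. The question was whether the lower level of miR-501-3p after reperfusion was shared by the other arm of its hairpin and by its neighbours in the cluster.

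The mice were C57BL/6J males of 8 to 10 weeks, an inbred strain, and small RNA of their livers was sequenced. The Sham group had a laparotomy with no clamping and a wait of 90 min in clean cages. The warm ischemia (WI) group had the vessels to the left and median lobes clamped for 90 min, and the ischemia followed by reperfusion (IR) group had the same clamping and then 120 min of restored flow. No mutant or transgenic allele was named, and anaesthesia and laparotomy were common to all groups. There was 1 library for each group of 6 mice, and the sources do not say how many of the 6 contributed RNA to it. No difference below has a replicate check among these libraries, and each p-value compares 2 libraries and not 2 conditions. IR livers were taken later after surgery than Sham livers, so reperfusion and time since surgery cannot be told apart.

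The libraries held 3784539 to 5064014 microRNA reads. The hepatocyte microRNA mmu-miR-122-5p was abundant in all of them (63202, 92431 and 58752 reads in Sham, WI and IR). Markers of other cells differed between the libraries. The summed level of the erythroid pair miR-451a and miR-144-3p in Sham, WI and IR was 1117, 1066 and 1961 CPM (reads per 1000000 after scaling), and both of its members were called higher in IR than in Sham. The 4 leukocyte markers, of which the arms of miR-142a are listed under the older name miR-142, summed to 3074, 3037 and 2792 CPM, and 1 of them (miR-223-3p) was called higher in IR than in Sham. For muscle, with 3 of 3 markers, it was 6.82, 23.8 and 75.1 CPM, with miR-133a-3p called higher in IR than in Sham, and miR-1a-3p and miR-206-3p had 0 reads in Sham. The 5 stromal markers summed to 39670, 43072 and 35224 CPM and the 2 endothelial ones to 19267, 22783 and 17568 CPM, and none of these was called in IR against Sham. The part of these shifts in the changes described below was not tested. In whole tissue, fewer cells of a type and less of a microRNA per cell cannot be told apart.

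A microRNA hairpin yields a 5p and a 3p product, of which 1 is usually kept in the silencing complex while the other is degraded. Bases 2 to 8 of the kept strand, the seed, pair with messenger RNAs and largely decide which are repressed. MicroRNAs from 1 intron begin on a shared transcript, but each hairpin is then processed and each product decays on its own, so that levels within a cluster can differ.

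In the NCBIM37 (mm9) annotation, Clcn5 lies on the minus strand of chromosome X, from 6730936 to 6896484. Hairpins were matched for 5 of the family names, all on the same strand as the gene and within 10815 bases. They lie in a single intron of 103648 bases (6790137 to 6893784), which is annotated in 3 of the 5 Clcn5 transcripts. In the order of transcription, the first is miR-532 (6825528 to 6825623), and miR-188 (6825115 to 6825182) follows after 345 bases. After a gap of 5942 bases comes miR-362 (6819108 to 6819172), and 630 bases further miR-501 (6818369 to 6818477). The last is miR-500 (6814809 to 6814900), 3468 bases beyond miR-501.

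Mature sequences of 7 of the 8 members were matched by name in RefSeq (GRCm38.p6, minus strand). They are shown 5′ to 3′ because the members whose reads could be mistaken for each other, and those that share a seed, can be read from them. Capitals mark the seed.

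mmu-miR-501-3p: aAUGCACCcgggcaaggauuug
mmu-miR-500-3p: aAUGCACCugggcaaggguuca
mmu-miR-362-3p: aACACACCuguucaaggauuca
mmu-miR-501-5p: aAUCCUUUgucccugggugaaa
mmu-miR-362-5p: aAUCCUUGgaaccuaggugugaau
mmu-miR-188-5p: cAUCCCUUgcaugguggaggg
mmu-miR-532-3p: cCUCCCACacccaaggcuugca

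The 3p products of miR-501 and miR-500 had the same seed, AUGCACC, and were identical at 18 of 22 positions. Counted from the 5′ end, the changes from miR-501-3p to miR-500-3p were C9U, A18G, U21C and G22A. Only 1 of them lies in the first 15 bases, the shortest read length that was kept, so short reads of one could be counted for the other. MiR-362-3p matched miR-501-3p at 15 of 22 positions but had another seed. The 5p products of miR-501 and miR-362 shared their first 7 bases and differed at the last base of the seed (U8G). No other row with a mature sequence had the seed of miR-501-3p and miR-500-3p. The seed of miR-362-3p was also that of miR-329-3p, which had 2 reads in Sham and 0 in both other libraries. The seed of miR-188-5p was also that of miR-7061-3p, which had 0 reads in every library. MiR-362-5p shared its seed with miR-500-5p, which had 0, 1 and 0 reads in Sham, WI and IR. For miR-532-5p, without a sequence, no search was made.

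The cluster was dominated by miR-532-5p and miR-501-3p. In Sham, WI and IR, miR-532-5p had 1161, 1203 and 1069 reads, or 293, 247 and 280 CPM. MiR-501-3p had 933, 805 and 502 reads in the same order, or 236, 165 and 131 CPM. MiR-532-5p was the higher of the pair in every library, with counting intervals apart from those of miR-501-3p. The ratio of miR-501-3p to miR-532-5p reads was 0.804 in Sham, 0.669 in WI and 0.470 in IR. By rank among all listed microRNAs, which needs no scaling, miR-501-3p stood at 94 in Sham, 103 in WI and 117 in IR, while miR-532-5p stood at 85, 90 and 88.

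The other 6 members were below 50 CPM in every library. MiR-362-3p had 87, 85 and 57 reads in Sham, WI and IR, which are 22, 17.5 and 14.9 CPM. MiR-500-3p had 56, 46 and 41 reads, or 14.1, 9.46 and 10.7 CPM. MiR-532-3p had 37, 41 and 31 reads, or 9.34, 8.43 and 8.11 CPM. These were all highest in Sham by CPM, but their 95% counting intervals overlapped between the libraries. MiR-362-5p, at 7.58, 6.58 and 6.80 CPM, had 30, 32 and 26 reads. MiR-188-5p had 8, 9 and 11 reads and miR-501-5p had 7, 5 and 5. With so few reads, the last pair could not be ordered between libraries. From miR-362-3p down, neighbours in the order of level in Sham had counting intervals that overlap, which is not a test of their difference. The exception was the step from miR-362-5p (5.11 to 10.8 CPM) to miR-188-5p (0.872 to 3.98 CPM). Further arms of the same hairpins were barely seen, with 1, 6 and 2 reads of miR-188-3p in Sham, WI and IR, and 0, 1 and 0 of miR-500-5p.

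**Figure D1:**
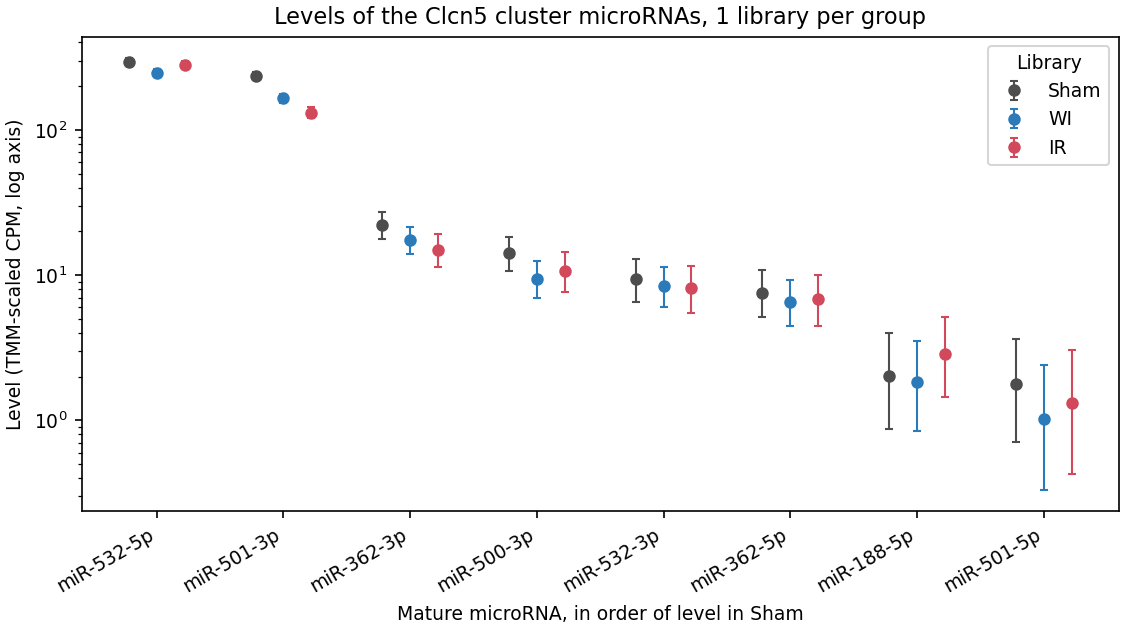
Level of the 8 members in the 3 libraries, as TMM-scaled CPM on a log axis. Points are 1 library each and bars are 95% intervals from the read counts. MiR-501-3p steps down from 236 CPM (Sham) through 165 (WI) to 131 (IR), while miR-532-5p stays between 247 and 293.

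The first comparison was of ischemia followed by reperfusion with Sham. MiR-501-3p was lower in IR than in Sham, with a log2 fold change of -0.84 (SE 0.08 from the reads alone, Fisher's exact p = 3.73e-27), a change of -44.3%. It was the only member called, where a call needed a fold change above 1.5 and a Fisher's exact p under 0.01. That is 1 of 8 members, beside 55 of 774 tested microRNAs (7.11%) called in either direction. With 50 or more reads over the IR and Sham libraries, 1 of 6 members was called lower, against 3.12% of 288 microRNAs. Of the 288, 3 had a lower log2 fold change than miR-501-3p. The lower level of miR-501-3p was known when the cluster was chosen, so these shares do not test it. The call rests on counting error. If animals are assumed to vary with a coefficient of 0.1, the exact test of edgeR gave p = 0.000133 for miR-501-3p, and with 0.2 it gave p = 0.0454 and no call.

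The other abundant member did not show this change. MiR-532-5p had a log2 fold change of -0.07 in IR against Sham (SE 0.06, Fisher's exact p = 0.262), and its reads would have been called lower at 747 in IR, against the 1069 observed. The change of miR-501-3p was lower than that of miR-532-5p by 0.77 on the log2 scale (difference -0.77, 95% counting interval -0.97 to -0.58). This difference compares reads within libraries and does not depend on the scaling.

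MiR-362-3p, from the hairpin next to miR-501, came closest to a call. It had a log2 fold change of -0.56 (SE 0.24, Fisher's exact p = 0.0242, Benjamini-Hochberg adjusted p over all 774 microRNAs 0.134). With totals of genome-aligned reads as the scale it was -0.72 and was called (Fisher's exact p = 0.00337). MiR-500-3p, which shares the seed of miR-501-3p, had -0.40 (SE 0.29, Fisher's exact p = 0.188). The difference of miR-501-3p from miR-362-3p was -0.29 (-0.79 to 0.22) and that from miR-500-3p was -0.45 (-1.04 to 0.15). Both intervals hold 0 and reach far below it, so these reads do not show whether either neighbour changed like miR-501-3p.

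The other arm of the hairpin gave no answer at this depth. MiR-501-5p had 7 reads in Sham and 5 in IR, a log2 fold change of -0.41 with a 95% counting interval from -2.43 to 1.44. With 7 reads in Sham, no read count in IR would have been called lower. The difference between the 3p and the 5p arm was -0.44 (-1.99 to 1.12). The 3p share of miR-501 reads in Sham was 99.3% (95% Wilson interval 98.5 to 99.6). It was 99.4% in WI (98.6 to 99.7) and 99.0% for IR (97.7 to 99.6). The 3p arm thus held nearly all miR-501 reads in each library, and a change of its share within these intervals was not detectable.

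The remaining members were miR-362-5p with a log2 fold change of -0.15 (SE 0.38), miR-532-3p with -0.20 (SE 0.35) and miR-188-5p with 0.49 (SE 0.64). The difference of miR-501-3p from miR-362-5p was -0.69 (-1.45 to 0.07) and from miR-532-3p -0.64 (-1.34 to 0.06), and both intervals hold 0. From miR-188-5p it was -1.33 (-2.60 to -0.06), which rests on 8 and 11 reads. Of the 7 differences, 2 had an interval wholly below 0. Had each member changed exactly as miR-501-3p did, the reads of 3 members would have given a call (miR-501-3p, miR-532-5p and miR-362-3p) and those of the other 5 would not. MiR-500-3p would have been at the limit, with 30.1 reads against at most 30 for a call.

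**Figure D2:**
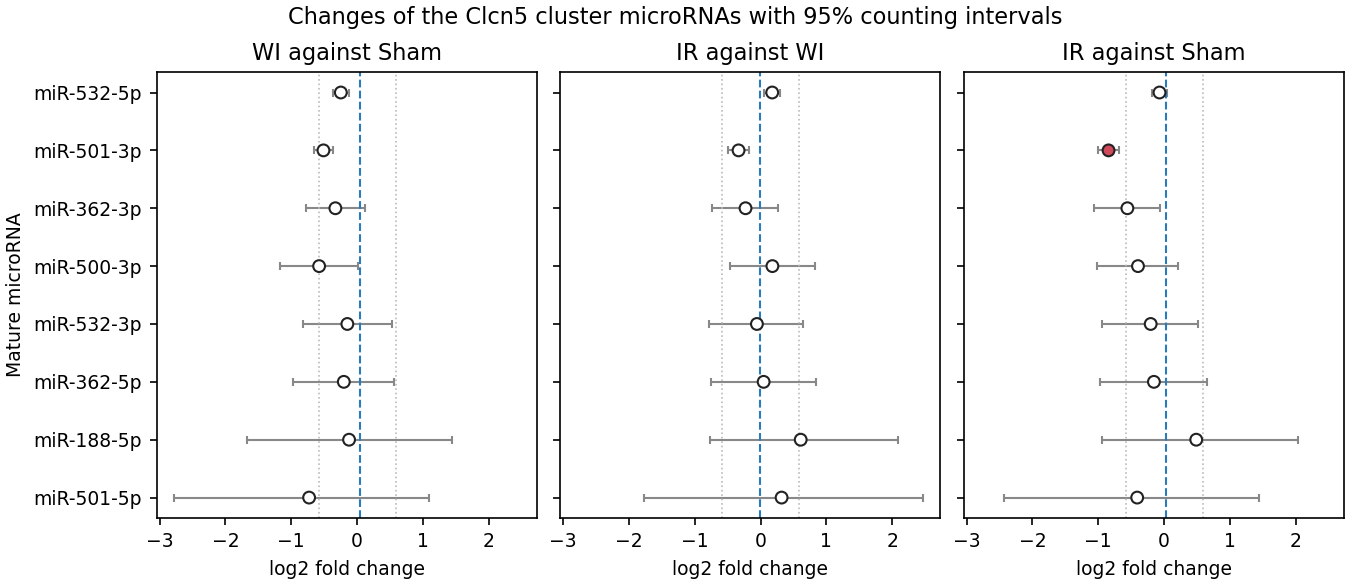
Log2 fold change of the 8 members in the 3 comparisons. Bars are exact 95% intervals from the read counts, the filled point is the 1 called change, the dashed line is the median of all tested microRNAs and the dotted lines mark a fold change of 1.5 in either direction. Only miR-501-3p in IR against Sham, at -0.84, lies beyond the dotted line with its whole interval.

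The direction was mostly the same. In IR against Sham 7 of 8 members had a log2 fold change below 0, and their median was -0.30, beside 0.04 for all tested microRNAs. Of the 6 members with at least 50 reads, 6 were below 0, against 46.9% of the 288 microRNAs with as many reads, and these 6 signs were the same under every scaling that was tried. MiR-501-3p, whose lower level raised the question, is counted in these numbers and in the median, and its sign was known in advance. Among the other members, only miR-362-3p had a counting interval wholly below 0 (-1.07 to -0.06). The members share a host gene and the Sham library, so they do not count as separate observations. Along the intron, the products of miR-532 and miR-188 had values from -0.20 to 0.49, and those of miR-362, miR-501 and miR-500 had values from -0.84 to -0.15. These ranges overlap, since miR-532-3p (-0.20) was below miR-362-5p (-0.15), and so do the counting intervals.

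**Figure D3:**
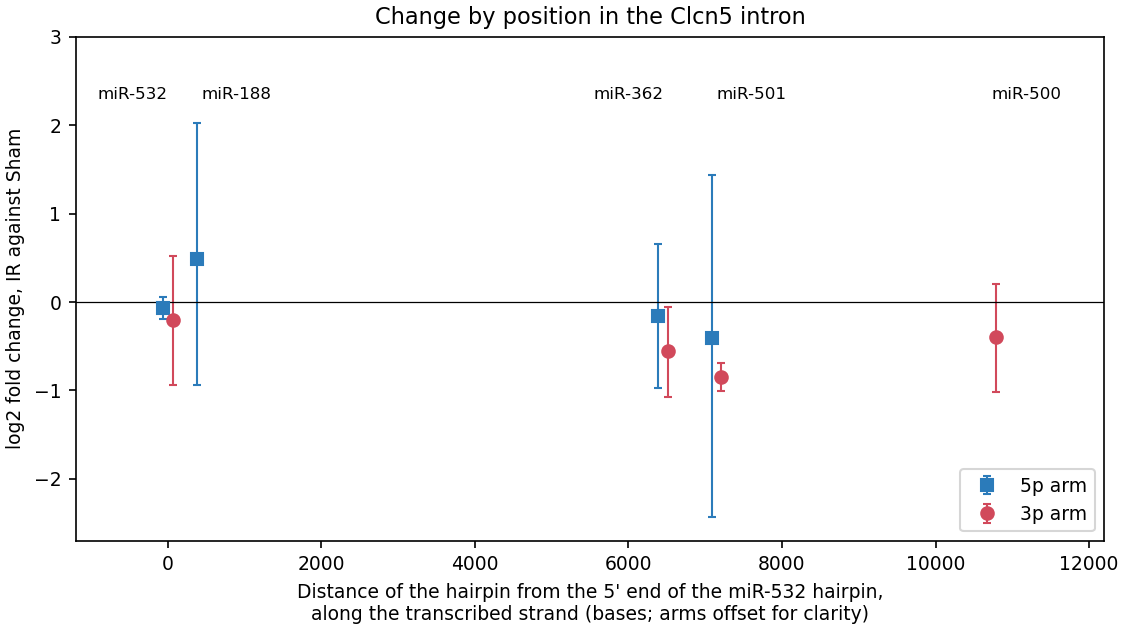
Log2 fold change in IR against Sham by the distance of each hairpin from the 5′ end of the miR-532 hairpin, in bases along the transcribed strand, with exact 95% counting intervals. The 2 hairpins at the start (0 and 441 bases) hold values from -0.20 to 0.49, and those from 6451 to 10723 bases hold values from -0.84 to -0.15, so that the ranges overlap.

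**Figure D4:**
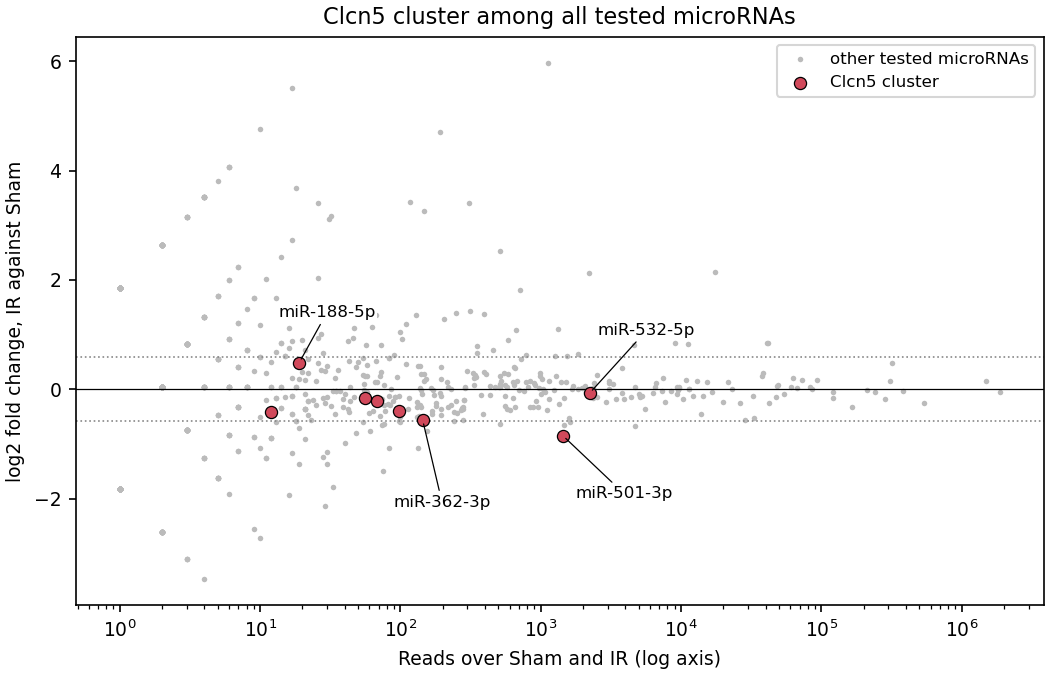
Log2 fold change in IR against Sham of every tested microRNA (grey) by its reads over both libraries, with the cluster in red. Dotted lines mark a fold change of 1.5. MiR-501-3p lies below the lower line among microRNAs of similar depth, and miR-532-5p lies near 0.

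Ischemia alone was compared next, with the same Sham library. No member was called in WI against Sham by Fisher's exact test, beside 15 of 782 microRNAs (1.92%) in either direction, and beside 1.36% of 294 called lower among those with at least 50 reads. An unadjusted Fisher's exact p under 0.05 at any fold was found for 3 of 8 members, beside 18.0% of the 782 microRNAs. That share was not matched for depth, and microRNAs with very few reads cannot reach such a p. With an assumed coefficient of 0.1, the exact test of edgeR gave p = 0.0191 for miR-501-3p and p = 0.251 for miR-532-5p. MiR-501-3p had a log2 fold change of -0.51 (SE 0.07, Fisher's exact p = 1.99e-13), a fold of 1.42 and thus short of 1.5. Scaled by library totals it was -0.61, and by totals without the 10 most abundant microRNAs -0.59, and both were called. MiR-532-5p had -0.25 (SE 0.06, Fisher's exact p = 3.83e-05). The change of miR-501-3p was the lower of the pair by a difference of -0.26 (-0.44 to -0.08).

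MiR-500-3p was close to miR-501-3p at this stage, with -0.58 (SE 0.29, Fisher's exact p = 0.0463) and a difference of 0.07 (-0.51 to 0.64). MiR-362-3p had -0.33 and miR-362-5p -0.20, and the remaining 3 members lay between -0.73 (miR-501-5p) and -0.12 (miR-188-5p). Of the 7 differences from miR-501-3p, 6 had intervals that hold 0. All 8 members were below 0, with a median of -0.29 beside 0.05 for all 782 microRNAs, although miR-532-3p and miR-188-5p turned to 0.01 and 0.03 with genome-aligned totals. Of the 6 with at least 50 reads, 6 were below 0, against 40.5% of 294.

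In IR against WI the abundant members moved apart by more than counting error, while variation between animals was not measured. Neither was called, and no member was by Fisher's exact test, beside 73 of 789 microRNAs (9.25%) in either direction and 7.05% of 298 called lower with at least 50 reads. An unadjusted Fisher's exact p under 0.05 at any fold was found for 2 of 8 members, beside 23.7% of the 789 microRNAs, a share again not matched for depth. With an assumed coefficient of 0.1, the exact test of edgeR gave p = 0.133 for miR-501-3p and p = 0.41 for miR-532-5p. MiR-501-3p had a log2 fold change of -0.33 (SE 0.08, Fisher's exact p = 4.66e-05), and miR-532-5p had 0.18 (SE 0.06, Fisher's exact p = 0.00378). The difference of miR-501-3p from miR-532-5p was -0.51 (-0.71 to -0.31). With genome-aligned totals miR-501-3p was at -0.66 and called, and miR-532-5p turned to -0.15, but the difference between them is free of the scaling.

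The other 6 members gave values from -0.23 (miR-362-3p) to 0.61 (miR-188-5p) from WI to IR, each with an interval that holds 0. MiR-500-3p, with 46 and 41 reads, had 0.18 (SE 0.31). Its difference from miR-501-3p was -0.51 (-1.14 to 0.11). Of the 6 members with at least 50 reads, 3 were below 0, against 55.7% of 298, although all 6 were below 0 with genome-aligned totals. The median of the 8 members was 0.11, beside -0.01 for all 789 microRNAs, and turned to -0.21 with genome-aligned totals, beside -0.32.

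The division of the cluster reads among its members needs no scaling. Of the reads of the 8 members in Sham, miR-501-3p held 40.2% (95% Wilson interval 38.3 to 42.2). Its share was 36.2% (34.2 to 38.2) after WI and 28.8% (26.7 to 31.0) after IR. MiR-532-5p held 50.1% (48.0 to 52.1), 54.0% (52.0 to 56.1) and 61.4% (59.1 to 63.6) in the same order. The other 6 members together held 9.70%, 9.79% and 9.82%, with intervals that overlap throughout. The IR intervals of both abundant members lie apart from those of Sham and WI. A share is not a level, since the cluster sum differed between the libraries. Those other 6 members had 225, 218 and 171 reads in Sham, WI and IR, and miR-532-5p was at 293, 247 and 280 CPM. The cluster as a whole summed to 586, 458 and 456 CPM. Without miR-501-3p the sums were 350, 292 and 324 CPM. MiR-501-3p made up 54.8% of the difference between WI and Sham and 80.2% of that between IR and Sham. Unlike the shares of reads, these sums and both percentages depend on the TMM scaling.

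**Figure D5:**
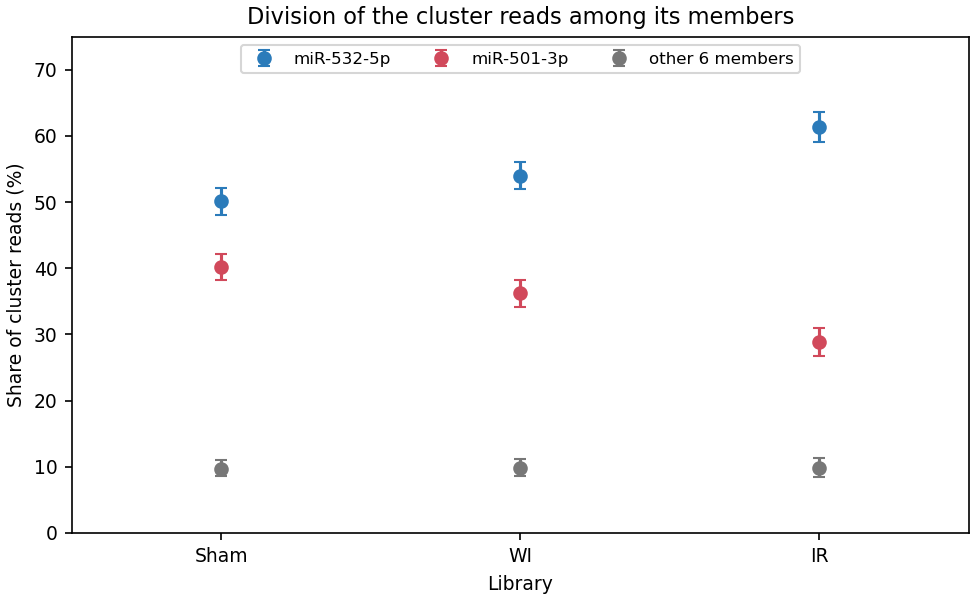
Share of the reads of the 8 members held by miR-532-5p, by miR-501-3p and by the other 6 members, in each library, with 95% Wilson intervals. The share of miR-501-3p goes from 40.2% in Sham to 28.8% in IR, that of miR-532-5p from 50.1% to 61.4%, and that of the other 6 stays near 10%. Shares are of a cluster sum that was lower in IR than in Sham, so they do not give levels.

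The balance of the arms of miR-362 and miR-532 did not differ between libraries beyond counting error. In Sham, WI and IR the 3p arm gave 74.4% (65.8 to 81.4), 72.6% (63.9 to 79.9) and 68.7% (58.1 to 77.6) of miR-362 reads. For miR-532, most reads were of the 5p arm, and the 3p arm gave 3.09% (2.25 to 4.23), 3.30% (2.44 to 4.44) and 2.82% (1.99 to 3.97). All of these intervals overlap between the libraries.

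Outside the cluster, the pattern most like that of miR-501-3p was searched among 173 microRNAs with at least 500 reads over the 3 libraries. Likeness was the Euclidean distance between pairs of log2 fold changes (WI against Sham and IR against Sham), which rest on 3 libraries and share Sham. The nearest were miR-3968 at 0.368, miR-100-5p at 0.398, miR-99b-5p at 0.413, miR-328-3p at 0.495 and miR-338-3p at 0.497. MiR-3968 had 910, 973 and 562 reads in Sham, WI and IR and was called lower in IR than in Sham, and miR-100-5p had 8174, 7541 and 5748 reads and was not called. None of the 173 was at least as low as miR-501-3p in both comparisons. With a minimum of 50 reads, chosen after the data were seen, 1 of 311 was. This was mmu-miR-6238, with 92, 62 and 42 reads in Sham, WI and IR and log2 fold changes of -0.86 in WI and -1.07 in IR against Sham. Within the cluster, miR-362-3p was at a distance of 0.339 from miR-501-3p. Its 229 reads are fewer than the minimum of 500, and 0 of the 173 but 4 of the 311 were nearer. MiR-532-5p was at 0.818, with 23 of the 173 and 63 of the 311 nearer.

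Among microRNAs with at least 50 reads over IR and Sham, log2 fold changes within the Clcn5 cluster ranged over 0.77 (6 members, from -0.84 to -0.07). Among rows named for miR-322, miR-503 and miR-351, also on chromosome X, 3 such microRNAs ranged over 0.35 (from 0.04 to 0.39). Any microRNA of that locus with another name was not counted. The value of 0.35 is thus the range of these rows and not that of the locus, which may be wider than that of the Clcn5 cluster. In the cluster of miR-183, miR-96 and miR-182, 3 members ranged over 0.19 (from -0.05 to 0.14). The order of the ranges of these rows was not the same in the other comparisons. In WI against Sham the ranges were 0.43 for the Clcn5 cluster, 0.25 for the miR-322 rows and 0.62 for the miR-183 cluster. For IR against WI they were 0.51, 0.13 and 0.67. The clusters differ in the number and depth of their members, and whether the ranges differ was not tested.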

How the data were processed

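Groups were taken from the sample titles, with 1 library each. The authors deposited, for each library, unscaled read counts of mature microRNAs. Per the methods of the study, the authors kept reads of 15 to 30 nt, aligned them to mm9 with Bowtie (0.12.7 in the submitters' processing notes, which list the build mm10) and took mature profiles from miRDeep2. A read that matches several microRNAs may count for each. Without molecular identifiers, all intervals and floors reflect counting error alone.

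TMM factors from edgeR 4.0.16 (R 4.3.3) put the counts on a CPM scale; for Sham they were 1.03, for WI 0.961 and for IR 1.01. A floor of 3 reads was 0.758, 0.617 and 0.785 CPM. Log2 fold changes used log2(CPM + 0.1), which understates changes of low microRNAs, with standard errors from the reads. All microRNAs with at least 1 read in either library were tested by two-sided Fisher's exact tests (scipy 1.17.1). Calls needed a fold change above 1.5 and p under 0.01, the criteria of the study. Differences between members have delta-method intervals and no p. A quasi-likelihood fit (edgeR) was not possible without replicates. The procedure was run on simulated counts with counting error only and with changes larger than that of miR-501-3p. It is thus no check of that call or of variation between animals. Other settings tried were the scaling (with DESeq2 1.42.0, among others), pseudocount, read minimum, thresholds, depth and assumed variation between animals. Hairpins were matched in GENCODE (NCBIM37).

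The named microRNAs were the members, other arms of their hairpins, rows with a member's seed, the 5 most like miR-501-3p, and rows with the names of both other clusters. Members, lists and tests were chosen with earlier results of these data known.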

Additional observations from a re-analysis of the deposited data

How the results depend on the processing

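With 1 library per group, between-animal variation was not measured and no library could be left out. No paired analysis was possible because each group had 1 library. Scaling by genome-aligned totals moved the median of all tested microRNAs to -0.32 for IR against WI, to 0.20 for WI against Sham and to -0.09 for IR against Sham. Relative to that median, miR-501-3p in IR against Sham was at -0.88 with TMM and between -0.92 and -0.88 over all 5 scalings.

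The number of members called kept within 1.5 times the reported one in 35 of 42 alternatives. Where the reported number was 0, a higher fold threshold, a higher read minimum or assumed variation could not be expected to raise it. In WI against Sham it was 1 (miR-501-3p) with library totals and 1 when the 10 most abundant microRNAs were left out of the totals. For IR against WI it was 1 (miR-501-3p) with genome-aligned totals, and in IR against Sham it was 2 (with miR-362-3p) with genome-aligned totals. It was 0 in IR against Sham with an assumed coefficient of variation of 0.2 or 0.4, and at a fold change above 2. Of 21 recomputed medians of the members, 1 changed sign, that of IR against WI, to -0.21 with genome-aligned totals. All 63 differences from miR-501-3p stayed within their intervals, and 3 of them, whose intervals hold 0, changed sign: from miR-501-5p in WI against Sham (-0.058 with a pseudocount of 1), and after thinning from miR-362-3p in WI against Sham (0.041) and from miR-532-3p in IR against WI (0.044). The 9 shares stayed within their Wilson intervals.

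Of 240 recomputed changes of single members, 225 kept direction and call, 4 gained a call, 2 lost one and 9 changed sign, none of them called. The 240 include the settings with assumed variation, which alter only p, so that direction was fixed in them. With genome-aligned totals these were miR-532-3p (0.007) and miR-188-5p (0.026) in WI against Sham, and miR-500-3p (-0.14), miR-362-5p (-0.27) and miR-532-5p (-0.15) in IR against WI. With library totals miR-532-3p became 0.017 in IR against WI. After thinning to the smallest library, miR-532-3p became 0.10 in WI against Sham, and miR-362-5p (-0.072) and miR-362-3p (0.032) turned in IR against WI. The cause was not tested.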
